A study of Eutrema salsugineum with 41 samples.

Results

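The genes described here were 150 leaf genes of Eutrema salsugineum, a salt-tolerant relative of Arabidopsis thaliana, whose transcript levels were lowest in the plants AtCMT3-L1T4 and AtCMT3-L2T4. They were chosen by their RNA-seq values alone. TPM, the unit of the levels below, is a gene's transcripts as a share of all transcripts in a library after correction for gene length. After each library was scaled to a TPM sum of 1000000, genes with a mean of at least 2 TPM were kept and the 200 most abundant genes were left out, which left 16302 of the 26352 genes in the expression table. Each gene was given a score, the lowest log2(TPM + 1) of the other 8 plants minus the higher log2(TPM + 1) of the T4 plants. A score above 0 means that both T4 plants lay below every other plant, and the 150 genes with the highest scores were taken. Because the choice used these levels, the low T4 values are a description and carry no test.

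The study placed CHROMOMETHYLASE 3 of A. thaliana (AtCMT3) into E. salsugineum, which lacks the gene, and followed the transformed plants over generations. RNA was sequenced from leaves of 10 individual plants of the Shandong ecotype, taken as cauline leaves, which are borne on the flowering stem, with 1 library per plant. The wild type (WT) plant carried no transgene, and the other 9 plants carried genomic AtCMT3 under its own A. thaliana promoter. Plants of lineage AtCMT3-L1 were from generations T3, T4 and T5 after transformation, those of lineage AtCMT3-L2 from T3, T4, T5 and T6, and lineage AtCMT3-L3 gave a pair of T2 plants, AtCMT3-L3T2 and AtCMT3-L3T2b. The plants received no other treatment in the labels, and their age and hour of harvest are not given in the sources used here. The paper states that transgenic plants were selected with Finale (BASTA), and it does not say whether WT was treated alike. Floral dip inserts the transgene at random and sometimes repeatedly, so sister plants and generations can differ in their insertions. As every plant gave a single library, differences between plants could not be set against replicates and no p-value is given. In whole leaves, fewer cells of a type and less RNA per cell cannot be told apart.

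CMT3 is a plant DNA methyltransferase that methylates cytosines in the CHG context, where H is A, C or T. In A. thaliana it binds histone H3 methylated at lysine 9 and keeps transposons and repeats methylated in a loop with the enzymes that write that histone mark. DNA methylation over promoters and transposons is often associated with low transcription, whereas methylation within the bodies of genes is common in moderately and constantly expressed genes. DNA methylation of the 150 genes was not analysed here.

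The libraries were alike in the number of genes with a value above 0, which ran from 19270 to 20122 and was 19615 in AtCMT3-L1T4 and 20122 in AtCMT3-L2T4. AtCMT3 itself was at 0.225 TPM in WT and at 5.39 TPM in AtCMT3-L2T6, and between 62.7 and 372 TPM in the other 8 plants. The T4 plants were not at an end of that order: AtCMT3-L1T4 had 64.5 TPM and AtCMT3-L2T4 had 189.5 TPM. Read depth is unknown, since the table holds no counts. The values of WT and of the T3 and T4 plants were deposited in another unit than those of the remaining 5 plants, so both T4 plants share their unit with WT and both T3 plants. The choice of the genes places both T4 plants below WT and both T3 plants within this unit too, so that is no separate check. The score computed within these 5 libraries ran from 0.40 to 5.53 with a median of 1.24. The leaf label was not checked against marker genes, because few of the gene identifiers are paired with names in the sources used here.

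Of the 16302 genes, 873 had a score above 0, or 5.36%, and the opposite pattern, both T4 plants above all others, was met by 1271 genes, or 7.80%. Leaving out 1 library loosens the rule, so the number of genes with a score above 0 rose each time, to between 896 and 1837. It was 1837 without AtCMT3-L2T5, 1685 without AtCMT3-L2T4 and 1331 without AtCMT3-L1T4. The scores of the 150 genes ran from 0.39 to 1.63, with a median of 0.56. The last gene taken had a score of 0.3890 and the first gene outside had 0.3876, so the limit of 150 falls within a continuous range.

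The 150 genes were mostly well expressed. Their mean over the 10 plants ran from 3.20 to 487 TPM with a median of 65.4 TPM, against a median of 20.5 TPM over all genes that could be chosen. Of the 150, 45 had a mean of 100 TPM or more (30%, against 9.50% of all), and 13 were below 10 TPM (8.67%, against 26.5%). A gene near 0 cannot be far below other plants on this scale, so the score itself favours abundant genes.

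Together the 150 genes made up 2.19% of all TPM in WT, 0.531% in AtCMT3-L1T4 and 0.540% in AtCMT3-L2T4. In the T3 plants they made up 1.59% in AtCMT3-L1T3 and 2.03% in AtCMT3-L2T3. In the later plants the share was 1.57% in AtCMT3-L1T5, 0.918% in AtCMT3-L2T5 and 1.14% in AtCMT3-L2T6. The L3 plants had 2.32% and 2.20%. The plot of summed expression by plant shows the T4 plants nearly level with each other, the late L2 plants next above them, and WT, AtCMT3-L2T3 and the L3 plants near the top.

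**Figure D1:**
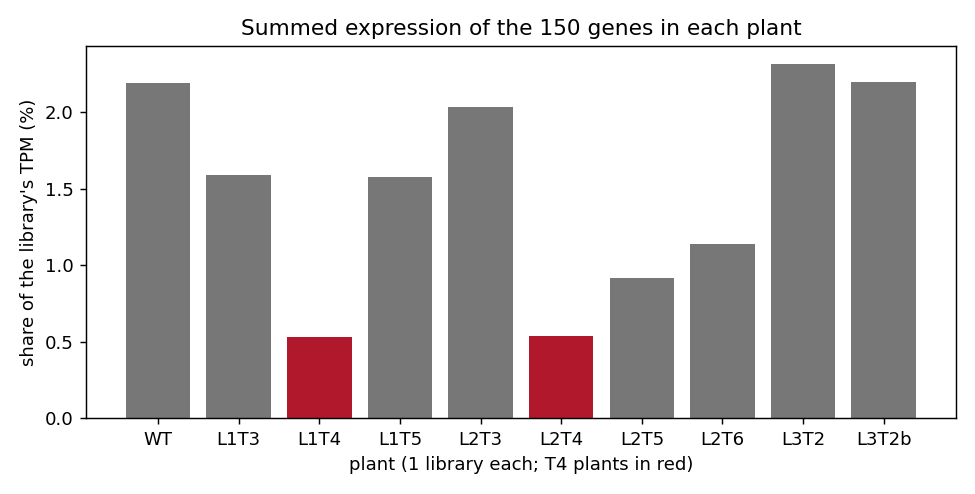
Bars give the summed TPM of the 150 genes as a percentage of all TPM in each of the 10 libraries (1 per plant), with the T4 plants in red. The T4 bars stand at 0.531% and 0.540%, and the next lowest bars are AtCMT3-L2T5 at 0.918% and AtCMT3-L2T6 at 1.14%.

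The level of the middle gene followed much the same order, with the T4 plants lowest and the late L2 plants next. The median over the 150 genes was 91.4 TPM in WT, 61.8 TPM in AtCMT3-L1T3, 22.9 TPM in AtCMT3-L1T4 and 64.8 TPM in AtCMT3-L1T5. In L2 it was 75.8 TPM at T3, 21.7 TPM at T4, 37.7 TPM at T5 and 42.2 TPM at T6. In the L3 plants it was 97.5 and 95.3 TPM. Over all genes that could be chosen, the median lay between 17.0 and 21.5 TPM in every plant, with 18.8 and 19.5 TPM in the T4 plants.

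Gene by gene, the T4 plants differed little from each other. The difference of AtCMT3-L2T4 from AtCMT3-L1T4 ran from -0.61 to 1.30 on the log2(TPM + 1) scale with a median of 0.03, and 149 of the 150 genes (99.3%) were within 1 of each other, against 95.4% of all genes. The mean of the T4 plants minus the mean of the other 8 ran from -5.25 to -0.65 on this scale, with a median of -1.54 (-0.03 over all genes). It was at least 1 lower for 126 genes (4.51% of all genes that could be chosen), at least 2 lower for 36 (0.540% of all), at least 3 lower for 10 (0.0797% of all) and at least 4 lower for 2 (0.0123% of all), and nothing is read from these shares, since the choice used the same values. The heatmap of all 150 genes shows a pair of T4 columns that are blue for every gene, in pale to full shades. The columns of AtCMT3-L2T5 and AtCMT3-L2T6 are mostly a paler blue.

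**Figure D2:**
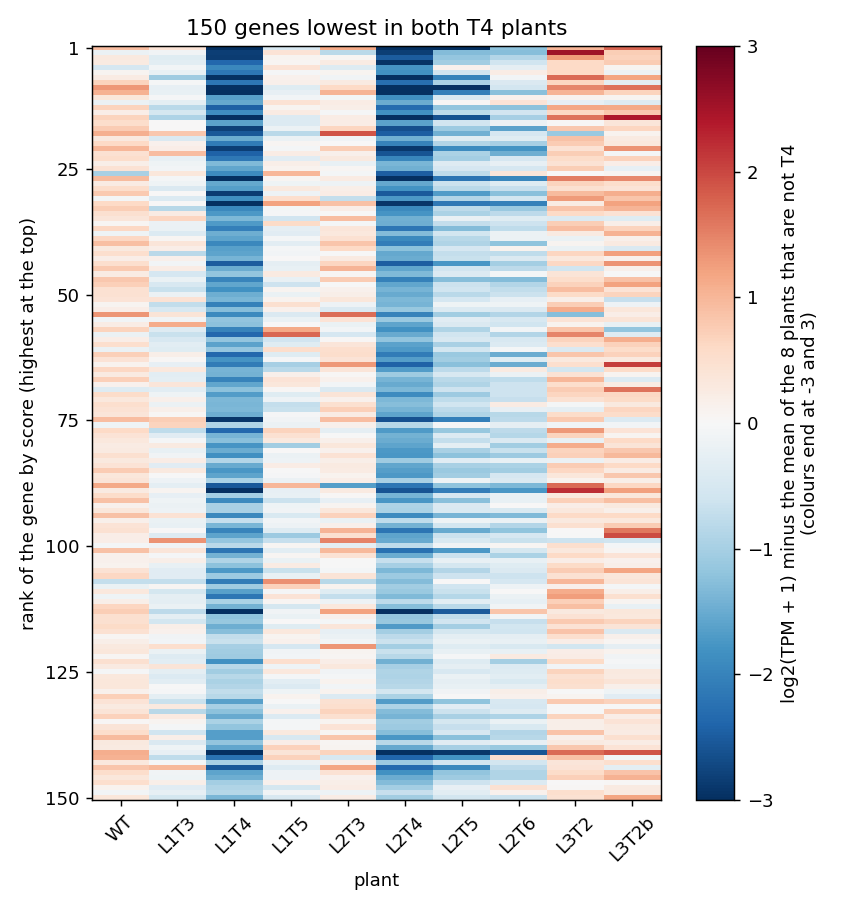
Each row is 1 of the 150 genes, ranked by score, and each column is 1 plant. Colour gives log2(TPM + 1) minus the mean of the 8 plants that are not T4, with colours ending at -3 and 3. The T4 columns are blue throughout by the choice of genes, and AtCMT3-L2T5 was the lowest of the other plants for 85 of the 150 genes.

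The gene with the highest score, Thhalv10013821m, has no annotation in the sources used here. It stood at 134 TPM in WT, and the T3 plants of L1 and L2 had 93.1 and 155 TPM. In the T4 plants it was at 1.03 TPM (AtCMT3-L1T4) and 0.737 TPM (AtCMT3-L2T4). In the later generations it was at 50.1 TPM in AtCMT3-L1T5 and at 5.31 and 29.5 TPM in the T5 and T6 plants of L2, and the L3 plants had 143 and 238 TPM. It had the largest difference of the 150 genes, -5.25 for the T4 mean minus the mean of the other 8 plants on the log2(TPM + 1) scale, and in lineage L2 the T5 plant lay closer to T4 than to T3.

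Thhalv10027370m, the gene with the next highest score and likewise without annotation, was listed at 0 in both T4 plants and was the only one of the 150 at 0 in any plant. It was a low gene elsewhere, at 5.21 TPM in WT and at 5.54 and 2.99 TPM in the T3 plants of L1 and L2. The later plants had 8.39 TPM (AtCMT3-L1T5), 1.84 TPM (AtCMT3-L2T5) and 1.90 TPM (AtCMT3-L2T6). AtCMT3-L3T2 had 39.7 TPM and AtCMT3-L3T2b 10.6 TPM. A level listed at 0 can be a failed estimate, so no fold is read for this gene. The size of its difference depends on the value added before log2.

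An A. thaliana ortholog was at hand for 11 of the 150 genes (7.33%), against 10.1% of the genes that could be chosen. The table that pairs them is used here only in part, so neither share is a count of all orthologs. The roles given below are those known in A. thaliana. These 11 genes were named because an ortholog was at hand, after their values had been seen, and the table was compiled by the study for genes that gained DNA methylation, so they are not a sample of the 150.

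Several of these genes act in chloroplasts. Thhalv10002670m is the ortholog of AT2G04039, which encodes NDHV, a subunit of the NADH dehydrogenase-like complex that carries cyclic electron flow around photosystem I. It was at 238 TPM in WT, 183 and 179.6 TPM in the T3 plants of L1 and L2, and at 69.2 and 68.9 TPM in AtCMT3-L1T4 and AtCMT3-L2T4. It was at 185 TPM in AtCMT3-L1T5, at 129 and 154 TPM in the T5 and T6 plants of L2, and at 320 and 289 TPM in the L3 plants. Both T4 plants had nearly the same level, with a difference of -1.53 from the mean of the other plants on the log2(TPM + 1) scale, and the next lowest plant was AtCMT3-L2T5.

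Thhalv10018862m is the ortholog of AT1G76570, which encodes LHCB7, a rare member of the light-harvesting chlorophyll a/b binding proteins of photosystem II. It was at 92.7 TPM in WT, 73.0 and 72.3 TPM in the T3 plants of L1 and L2, and 51.3 and 49.0 TPM in the T4 plants. It was at 78.1 TPM in AtCMT3-L1T5, at 76.7 and 73.7 TPM in the T5 and T6 plants of L2, and at 103 and 105 TPM in the L3 plants. This was one of the steadier genes outside T4, and its T4 mean differed from the mean of the others by only -0.72 on the log2(TPM + 1) scale.

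Thhalv10009773m is the ortholog of AT1G07010, which encodes SLP1, a Shewanella-like protein phosphatase of the chloroplast. It was at 225 TPM in WT, at 160.1 and 203 TPM in the T3 plants, and at 65.7 and 55.7 TPM in the T4 plants of L1 and L2. AtCMT3-L1T5 had 188 TPM, AtCMT3-L2T5 95.7 TPM, AtCMT3-L2T6 117 TPM, and the L3 plants 298 and 330.4 TPM. Here AtCMT3-L1T5 was above AtCMT3-L1T3, whereas the T5 and T6 plants of L2 were below every plant except those of T4.

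Thhalv10011724m is the ortholog of AT1G44000, which encodes a stay-green-like protein (SGRL) of the family that acts in chlorophyll breakdown. It was at 124 TPM in WT, 89.6 and 99.5 TPM in the T3 plants, and 56.0 and 63.4 TPM in the T4 plants of L1 and L2. It was at 113.8 TPM in AtCMT3-L1T5, 87.4 and 92.1 TPM in AtCMT3-L2T5 and AtCMT3-L2T6, and 181 and 116 TPM in the L3 plants. Its T4 mean differed from the mean of the others by -0.87 on the log2(TPM + 1) scale.

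Other annotated genes act in regulation. Thhalv10021314m is the ortholog of AT3G12320, which encodes LNK3, a relative of the LNK coactivators of the circadian clock. It was at 248 TPM in WT, 237 and 227 TPM in the T3 plants, and 109.5 and 95.2 TPM in the T4 plants of L1 and L2. It was at 180.3 TPM in AtCMT3-L1T5, 159 and 172 TPM in AtCMT3-L2T5 and AtCMT3-L2T6, and 178 and 236 TPM in the L3 plants. The other 8 plants thus spanned a narrow range above the T4 plants, with an SD of 0.25 on the log2(TPM + 1) scale.

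Thhalv10004767m is the ortholog of AT2G03710, which encodes SEP4, a MADS-box transcription factor of flower development. It was at 24.4 TPM in WT, 24.9 and 25.9 TPM in the T3 plants, and 5.30 and 6.12 TPM in the T4 plants. It was also low in AtCMT3-L1T5, at 9.33 TPM, close to the 9.37 TPM of AtCMT3-L2T6 and below the 16.5 TPM of AtCMT3-L2T5. The L3 plants had 45.5 and 27.0 TPM. It was the only gene of flower development among the annotated genes.

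Thhalv10023631m is the ortholog of AT1G64690, which encodes BLT (BRANCHLESS TRICHOME), needed for the branching of leaf hairs. It was at 23.9 TPM in WT, 25.2 and 23.3 TPM in the T3 plants, and 13.1 and 11.8 TPM in the T4 plants. The later plants had 32.5 TPM (AtCMT3-L1T5), 20.3 TPM (AtCMT3-L2T5) and 20.2 TPM (AtCMT3-L2T6), and AtCMT3-L3T2b, at 101 TPM, was far above AtCMT3-L3T2 at 54.4 TPM. The spread of this gene thus lay more in the high L3 plants than in the late L2 plants.

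Thhalv10022898m is the ortholog of AT2G16740, which encodes the ubiquitin-conjugating enzyme UBC29. It was at 205 TPM in WT, 121 and 179 TPM in the T3 plants of L1 and L2, and 74.7 and 67.5 TPM in the T4 plants. AtCMT3-L1T5 had 209 TPM, AtCMT3-L2T5 129 TPM, AtCMT3-L2T6 164 TPM, and the L3 plants 225 and 171 TPM. The next lowest plant was here AtCMT3-L1T3.

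Thhalv10018151m is the ortholog of AT1G69480, which encodes PHO1;H10, a member of the family of the phosphate exporter PHO1. It was at 46.7 TPM in WT, 34.4 and 69.8 TPM in the T3 plants, and 7.77 and 6.57 TPM in the T4 plants. AtCMT3-L1T5 had 25.7 TPM, while AtCMT3-L2T5 and AtCMT3-L2T6 had 11.3 and 14.0 TPM, nearer to T4 than to T3 of their lineage. The L3 plants differed from each other, at 34.1 and 104 TPM.

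Thhalv10018492m is the ortholog of AT1G73480, an enzyme of the monoacylglycerol lipase family, and had the widest span of the annotated genes. It was at 338 TPM in WT, at 132 and 249 TPM in the T3 plants, and at 8.88 and 14.9 TPM in AtCMT3-L1T4 and AtCMT3-L2T4. AtCMT3-L1T5 had 207 TPM, but AtCMT3-L2T5 and AtCMT3-L2T6 had 19.99 and 25.8 TPM, only slightly above the T4 plants, and the L3 plants had 513 and 581 TPM. Its score was low, 0.40, because of the late L2 plants, while its T4 mean differed from the mean of the others by -3.66 on the log2(TPM + 1) scale.

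The last of the 11, Thhalv10008683m, is the ortholog of AT1G18180 and is named here without a role. It was at 21.6 TPM in WT, 12.8 and 16.3 TPM in the T3 plants, 5.58 and 5.84 TPM in the T4 plants, and 15.4, 13.3 and 13.4 TPM in AtCMT3-L1T5, AtCMT3-L2T5 and AtCMT3-L2T6. The L3 plants had 33.0 and 21.4 TPM. The lowest of the other 8 plants was AtCMT3-L1T3, by a small margin. The plots of these 13 genes show where the late L2 plants fall between the T4 plants and the rest.

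**Figure D3:**
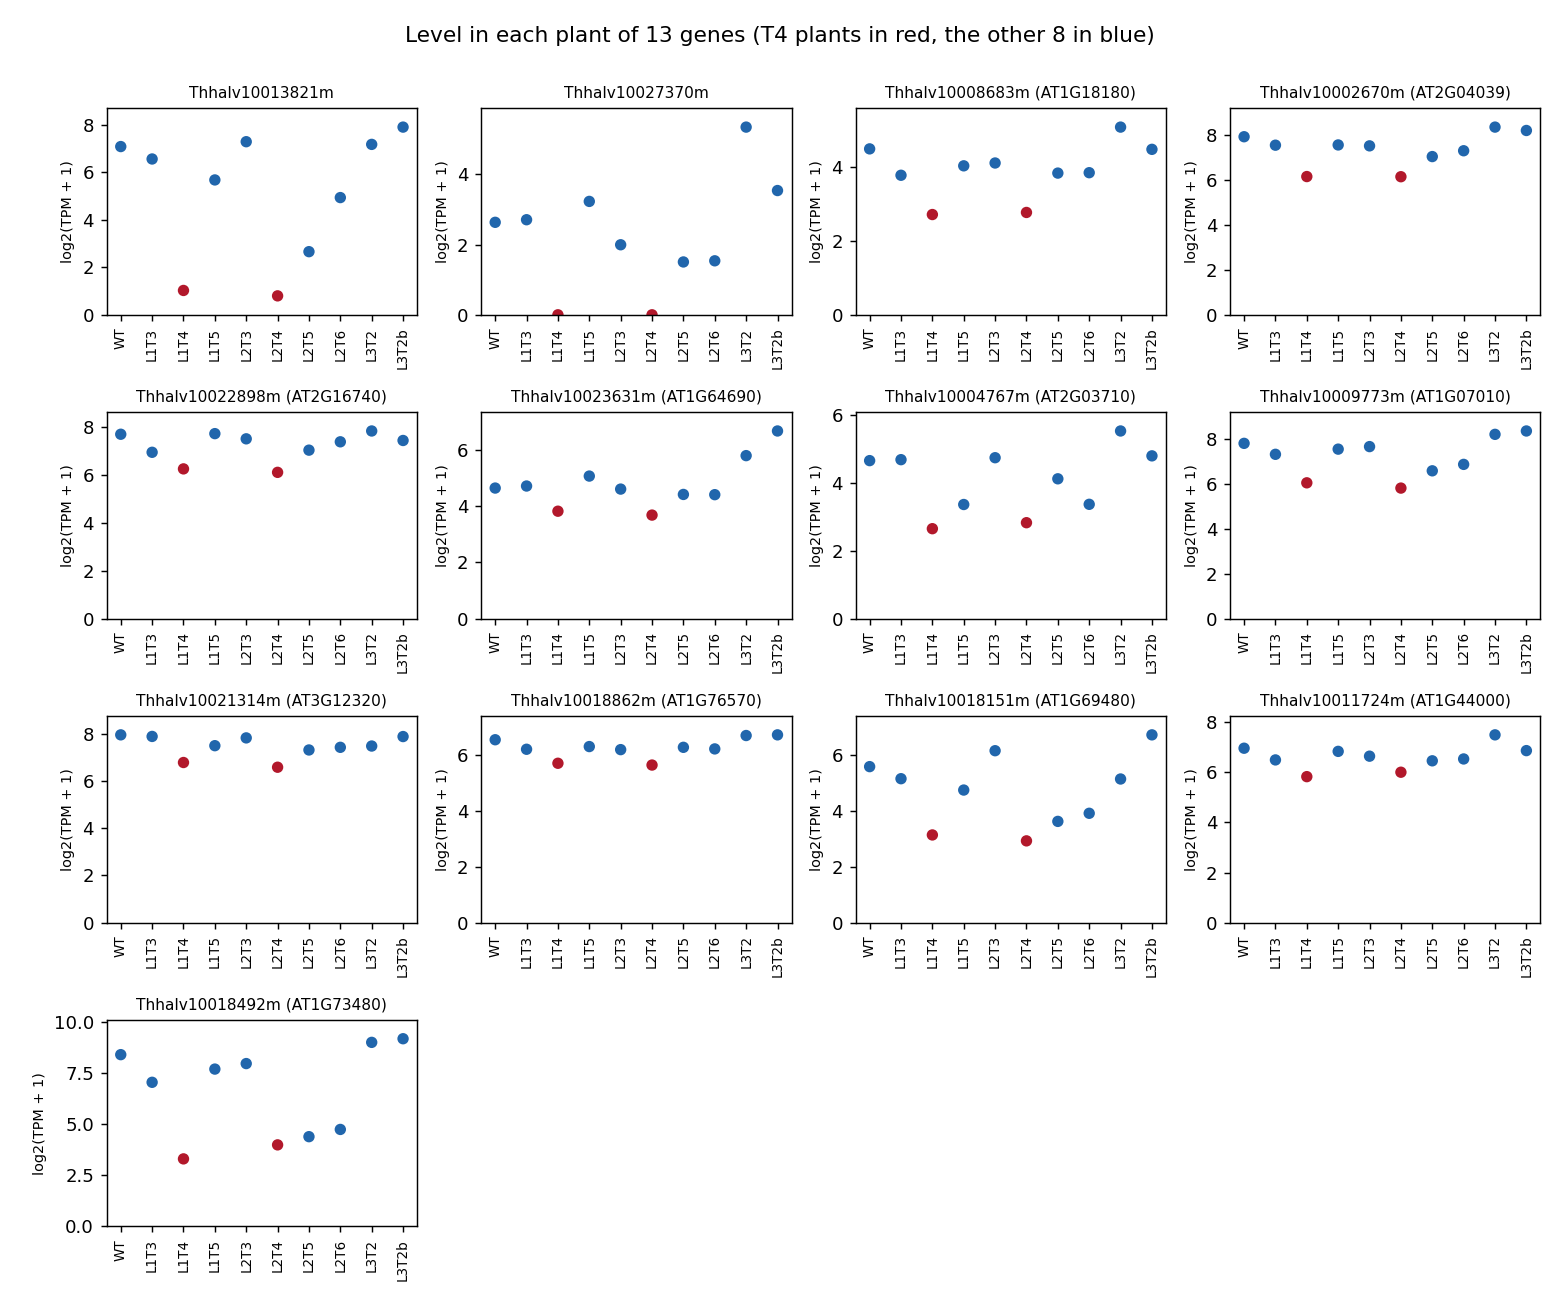
Each panel gives 1 gene (its A. thaliana ortholog in brackets) in the 10 plants as log2(TPM + 1), with T4 plants in red and the other 8 in blue, 1 library per plant. In Thhalv10018492m the late L2 plants, at 19.99 and 25.8 TPM, lie close to the T4 plants, whereas in Thhalv10018862m they lie with the other plants at 76.7 and 73.7 TPM.

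Compared with WT, all 150 genes were lower in both T4 plants, as the choice required. The difference of AtCMT3-L1T4 from WT ran from -6.30 to -0.75 on the log2(TPM + 1) scale with a median of -1.93, and 71 of the 150 were at -2 or below, where 2.54% of all genes that could be chosen were. For AtCMT3-L2T4 it ran from -6.28 to -0.58 with a median of -1.83, and 62 were at -2 or below, against 1.88% of all. The median of all genes was -0.08 and -0.06 in these comparisons. Both share the WT library.

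The T3 plants of the same lineages were much closer to WT. AtCMT3-L1T3 differed from WT by a median of -0.50 over the 150 genes, and none of them was at -2 or below (0.0981% of all genes were). AtCMT3-L2T3 differed by a median of -0.19, with 1 gene at -2 or below, against 0.19% of all. Between the T3 plants, AtCMT3-L2T3 was above AtCMT3-L1T3 for 118 of the 150 genes (78.7%, against 58.9% of all genes), with a median difference of 0.34 where all genes had 0.08. From T3 to T4 the median difference was -1.46 in L1, with 35 genes at -2 or below (2.55% of all genes), and -1.69 in L2, with 51 at -2 or below (2.67% of all). These T4 values entered the choice of the genes, so nothing is read from the excess over all genes.

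The plants after T4 differed between the lineages. In L1, the T5 plant was above the T4 plant by a median of 1.495 on the log2(TPM + 1) scale, and 40 of the 150 genes were higher by 2 or more, against 2.15% of all genes. In L2, the T5 plant was above the T4 plant by a median of 0.76 and none of the 150 was higher by 2 or more, against 0.307% of all. A difference of at least the last score was required of every gene. Where AtCMT3-L2T5 was the lowest of the other 8 plants, as for 85 genes, its gap above the higher T4 plant was the score itself. No score was above 1.63, so these sizes are partly set by the choice and nothing is read from them.

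Beyond its place above T4, a plant's level entered the score only where it was the lowest of the other 8. That plant was AtCMT3-L2T5 for 85 genes, AtCMT3-L2T6 for 34, AtCMT3-L1T3 and AtCMT3-L1T5 for 9 each, and AtCMT3-L2T3 for 5. Comparisons with T3 are therefore not free of the choice and are a description. Set against T3, the L1 plants of T3 and T5 were level. The median difference of AtCMT3-L1T5 from AtCMT3-L1T3 was 0.01, and 134 of the 150 genes (89.3%) lay within 1 of each other, as did 89.4% of all genes. In L2 the median difference of T5 from T3 was -0.88, with 85 genes (56.7%) within 1, against 77.2% of all genes and a median over all genes of -0.29. AtCMT3-L2T6 differed from AtCMT3-L2T3 by a median of -0.71, with 101 genes (67.3%) within 1, against 81.4% and -0.15 over all genes. From T5 to T6 in L2 the median difference was 0.16, close to the 0.14 of all genes.

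AtCMT3-L2T5 lay below AtCMT3-L1T5 for 135 of the 150 genes (90%), against 59.2% of all genes, with a median difference of -0.67 where all genes had -0.11. Both of these plants were deposited in the same unit. AtCMT3-L2T5 was the lowest of the 8 other plants for 32.1% of all genes too. That lowest level entered the score, so this comparison is also a description. AtCMT3 was at 97.8 TPM in AtCMT3-L1T5 and 62.7 TPM in AtCMT3-L2T5, and its part in this difference was not tested.

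**Figure D4:**
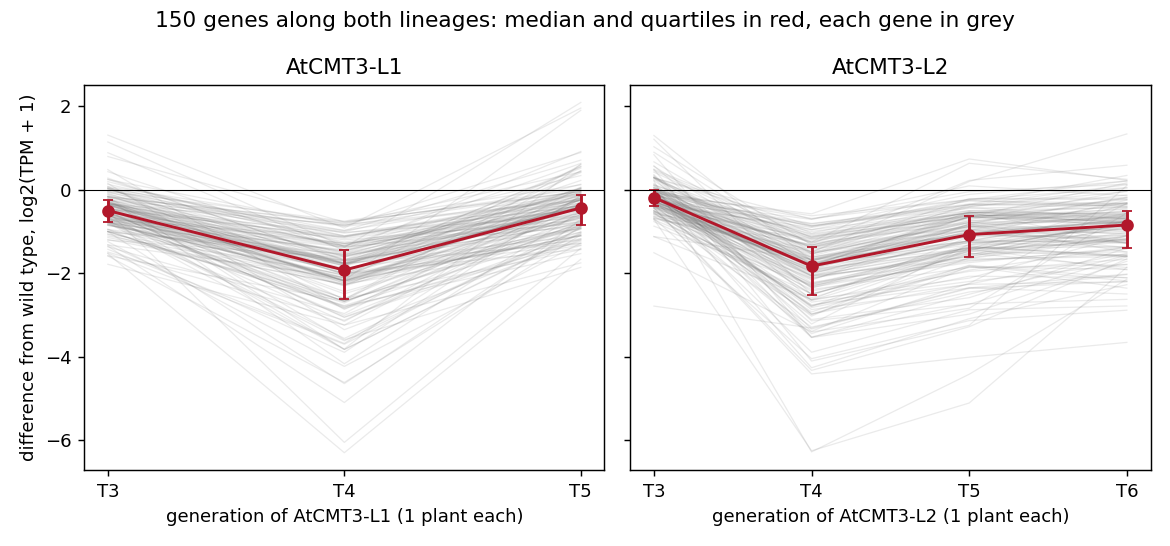
Each grey line is 1 of the 150 genes, drawn as its log2(TPM + 1) minus that of WT along the generations of lineage AtCMT3-L1 (left) and AtCMT3-L2 (right), 1 plant per generation. Red points give the median and the bars the quartiles over genes: -0.50, -1.93 and -0.44 at T3, T4 and T5 of L1, and -0.19, -1.83, -1.08 and -0.85 at T3 to T6 of L2.

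Against WT, AtCMT3-L1T5 differed by a median of -0.44 and no gene was at -2 or below (1.08% of all genes). AtCMT3-L2T5 differed by a median of -1.08, with 24 genes at -2 or below (3.28% of all), and AtCMT3-L2T6 by a median of -0.85, with 15 genes at -2 or below (2.82% of all). The median of all genes was -0.22 in AtCMT3-L2T5 and -0.09 in AtCMT3-L2T6. With every library centred so that its median ratio was 0, the medians of the 150 genes were -0.86 and -0.75 in these plants, with 21 and 13 genes at -2 or below. With the values left as deposited, in which the libraries have unequal sums, they were -0.54 and -0.31, with 13 and 4 genes, while the median of all genes stood at 0.28 and 0.41. The median of AtCMT3-L1T5 was then 0.10, above WT, with all genes at 0.41. Shares of all genes at -2 or below were not computed for the centred or deposited values, so nothing is read from those counts.

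The L3 plants, which had the highest AtCMT3 levels (233.7 and 372 TPM), had medians near WT in the scaled values. AtCMT3-L3T2 differed from WT by a median of 0.13, with 2 genes at -2 or below (3.01% of all genes), and AtCMT3-L3T2b by a median of 0.02, with none at -2 or below (1.66% of all). For AtCMT3-L3T2b the sign of the median turned, to -0.09, with the median ratio of all genes centred at 0. With the values left as deposited, the medians were 0.66 and 0.54, where all genes had 0.49 and 0.61. Both L3 plants were above WT for 63 of the 150 genes (42%), close to the 40.2% of all genes. AtCMT3-L3T2 was the highest of the 10 plants for 55 genes (36.7%, against 12.04% of all genes) and AtCMT3-L3T2b for 40 (26.7%, against 20.7%). WT was the highest for 25 (16.7%, against 7.38%) and AtCMT3-L2T3 for 15 (10%, against 15.1%). The remaining 15 genes were highest in AtCMT3-L1T5 (7), AtCMT3-L1T3 (5) or AtCMT3-L2T6 (3).

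Among the 8 plants that are not T4, AtCMT3-L2T5 was the lowest for 85 genes (56.7%, against 32.1% of all genes) and AtCMT3-L2T6 for 34 (22.7%, against 12.8%). AtCMT3-L1T3 and AtCMT3-L1T5 were each the lowest for 9 genes, AtCMT3-L2T3 for 5, AtCMT3-L3T2b for 4, and WT and AtCMT3-L3T2 for 2 each. AtCMT3-L2T5 and AtCMT3-L2T6 were together the lowest pair for 85 genes (56.7%), against 23.5% of all genes. The lowest level of these 8 plants entered the score, so these shares are a description and nothing is read from the excess. The plot of the next lowest plant shows both late L2 bars above those of all genes and every other bar below.

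**Figure D5:**
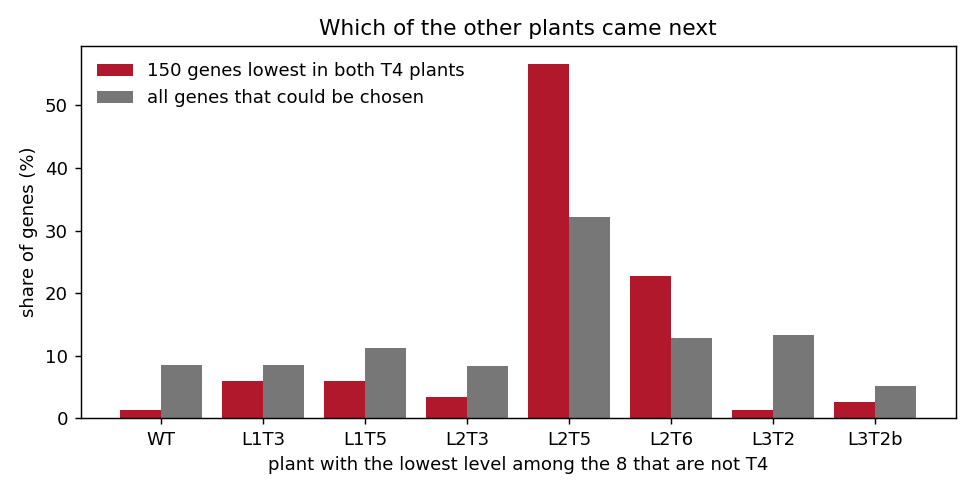
Red bars give the percentage of the 150 genes, and grey bars that of all 16302 genes that could be chosen, for which each plant was the lowest of the 8 plants that are not T4. AtCMT3-L2T5 holds 56.7% of the 150 genes against 32.1% of all, and AtCMT3-L2T6 22.7% against 12.8%. The lowest level of the 8 plants entered the choice of the genes.

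Outside T4 the 150 genes had a wider range than all genes, though not on equal terms. The score favours abundant genes, and differences on the log2(TPM + 1) scale understate changes of low genes. The lowest of the 8 other plants also entered the score, so the ranges are a description. Their range over the 8 other plants had a median of 1.64 on the log2(TPM + 1) scale, against 1.00 for all genes. The range was under 1 for 28 genes (18.7%, against 50.2% of all) and 2 or more for 51 (34%, against 17.8%), and the remaining 71 lay between. The 28 steady genes, among them the orthologs of LHCB7 and LNK3, were low in T4 by small steps. Their median level was 85.4 TPM in WT, 39.01 TPM in AtCMT3-L1T4, 39.4 TPM in AtCMT3-L2T4, and 64.3 and 72.2 TPM in the T5 and T6 plants of L2, and the T4 mean was lower than the mean of the others by a median difference of -0.95. For the 71 genes between, that difference was -1.46, and AtCMT3-L2T5 differed from WT by a median of -1.03.

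The 24 genes at -2 or below against WT in AtCMT3-L2T5 and the 15 in AtCMT3-L2T6 necessarily fall among the 51 variable genes, since WT and both late L2 plants are part of the range. The median level of these 51 genes was 84.1 TPM in WT, 8.74 TPM in AtCMT3-L1T4, 10.6 TPM in AtCMT3-L2T4, 19.99 TPM in AtCMT3-L2T5, 27.2 TPM in AtCMT3-L2T6 and 46.9 TPM in AtCMT3-L1T5. Against WT, AtCMT3-L2T5 had a median difference of -1.93 and AtCMT3-L2T6 of -1.59 on the log2(TPM + 1) scale, and AtCMT3-L1T5 of -0.88 with no gene at -2 or below. Groups of genes by their range were formed from the same values, so these are descriptions.

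The 10 genes whose T4 mean was at least 3 below the mean of the others followed this order too. Their median was 124 TPM in WT, 134 TPM in AtCMT3-L2T3, 77.6 TPM in AtCMT3-L1T3, and 158 and 199 TPM in the L3 plants. It was 4.63 TPM in AtCMT3-L1T4 and 6.54 TPM in AtCMT3-L2T4, then 102 TPM in AtCMT3-L1T5, and 12.6 and 28.7 TPM in the T5 and T6 plants of L2. AtCMT3-L2T5 was the lowest of the 8 other plants for all 10 (32.1% of all genes). Against WT it was at -2 or below for all 10 (3.28% of all genes). AtCMT3-L2T6 was at -2 or below for 6 (2.82% of all) and AtCMT3-L1T5 for none (1.08% of all). No score was above 1.63, so a T4 difference this large needs another plant well below the mean of the others. A low plant outside T4 is thus partly built in, and nothing is read from these counts. Thhalv10013821m and Thhalv10018492m, described above, are among the 10 genes.

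The 150 genes shared much of their order over the 8 plants that the T4 values do not enter. The correlation of each gene with the mean of the other 149 over these 8 plants, on the log2(TPM + 1) scale, ran from -0.49 to 0.99 with a median of 0.81. It was 0.8 or more for 79 genes and below 0 for 1. The other 16152 genes had a median correlation of 0.30 with the mean of the 150, an upper quartile of 0.68 and a highest value of 0.995. Their shares at 0.8 or more and below 0 were not computed, so nothing is read from the counts of 79 and 1. These points share libraries, and the lowest of the 8 plants entered the score, so the values are a description.

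Lists of genes for photosynthesis, the circadian clock, hormones, stress and other functions could be matched for few genes, because only A. thaliana codes were at hand. By the codes written in the lists, 3 of 18 lists had 1 matched gene each and 15 had none, and none of the 3 matched genes was among the 150. By the known names of their orthologs, 3 of the 11 annotated genes also meet a list: Thhalv10021314m (LNK3) that of the circadian clock, Thhalv10018862m (LHCB7) that of photosynthesis, and Thhalv10004767m (SEP4) that of flower markers. Genes outside the 150 were not matched by name. The ortholog of JAZ1 (Thhalv10008419m), a repressor of jasmonate signalling, was at 184 TPM in WT, 30.3 TPM in AtCMT3-L1T4 and 75.95 TPM in AtCMT3-L2T4, but lower still in AtCMT3-L2T5 (10.01 TPM) and AtCMT3-L2T6 (7.93 TPM). The ortholog of SUR1 (Thhalv10001981m), an enzyme of glucosinolate synthesis, was at 272 TPM in WT, 68.7 and 82.8 TPM in the T4 plants of L1 and L2, and 62.3 TPM in AtCMT3-L2T6. The ortholog of WRKY40 (Thhalv10018925m), a stress-response transcription factor, was at 12.8 TPM in WT, 2.41 and 5.43 TPM in the T4 plants, and 1.59 TPM in AtCMT3-L2T6. The orthologs of JAZ1, SUR1 and WRKY40 were thus low in the T4 plants against WT but lowest in AtCMT3-L2T6, and their scores were below 0. For SUR1 no other plant outside T4 lay below the higher T4 plant. For JAZ1, AtCMT3-L2T5 and AtCMT3-L3T2b (73.9 TPM) did so too. For WRKY40, AtCMT3-L1T5 (4.89 TPM), AtCMT3-L2T5 (3.51 TPM) and AtCMT3-L3T2b (5.18 TPM) did so too. No statement on a pathway can be made from these lists.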

How the data were processed

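RNA-seq of leaves from 10 plants was used, 1 library per plant. The authors trimmed reads, aligned them to the E. salsugineum reference with HISAT2 and estimated expression with StringTie (1.3.3b). The HISAT2 version is 2.1.0 in the submitters' processing notes, and the paper gives a different one. The deposited table names all 10 columns FPKM. Of these, 5 (WT and the T3 and T4 plants) hold FPKM values with sums of 676021 to 695872, and the other 5 deposited columns each sum to 1000000, as TPM does. All columns were therefore scaled to a sum of 1000000, with a pseudocount of 1 before log2. Differences on that scale understate changes of low genes. Depth is unknown, so no counting interval is given.

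The members and the gene lists were chosen with earlier results of these data known. The rule for named genes (the highest scores, list members, genes at the limit) was kept only in part: 0 identifiers matched the reference gene table, so 2 genes without annotation and the 11 with an A. thaliana ortholog in the study's table (1998 identifiers at hand) were named. Gene positions, promoters and proteins were not at hand, so motif, sequence and H3K9me2 analyses were not run. Bisulfite and ChIP-seq samples were not analysed here. The selection rule was run on simulated data with planted low genes, with noise of the same size for every gene and independent between plants. The real genes differ in both respects, so that run checks the code only. Alternatives changed the scaling, pseudocount, expression minimum, abundant-gene filter, centring and libraries. Python 3.11.15, pandas 2.3.3, numpy 2.4.6 and matplotlib 3.10.9 were used.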

Additional observations from a re-analysis of the deposited data

How the results depend on the processing

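The number of genes with a score above 0 was 873. It was 3733 with unscaled values, where the T4 libraries sum to less than 5 of the others, and 5928 when only the 5 libraries deposited as FPKM were used, which asks for 3 plants above T4 instead of 8. Leaving out 1 library at a time gave 896 to 1837 genes (1331 without AtCMT3-L1T4, 1685 without AtCMT3-L2T4, 1837 without AtCMT3-L2T5), each time with fewer plants to order. Of the 150 genes, 77 to 148 were again among the 150 highest scores when 1 library was left out (77 without AtCMT3-L2T4, 86 without AtCMT3-L2T5, 96 without AtCMT3-L2T6), and 30 with the FPKM libraries alone. At a limit of -1 instead of -2, 138 genes were below WT in AtCMT3-L1T4 and 136 in AtCMT3-L2T4, and at -3 there were 24 and 21. The shares of all genes at -1 and -3 were not computed. The choice used these T4 values, so nothing is read from these counts. The median differences of the T4 plants from WT and from T3 moved by less than the spread between plants under each alternative run. Chosen after seeing the data, the values as deposited moved the median against WT to 0.10 in AtCMT3-L1T5 (reversed), -0.54 in AtCMT3-L2T5, -0.31 in AtCMT3-L2T6, 0.66 in AtCMT3-L3T2 and 0.54 in AtCMT3-L3T2b, and setting the median log2 ratio of all genes to 0 gave -0.087 in AtCMT3-L3T2b (reversed). Among the named genes, the difference of Thhalv10027370m, listed at 0 in both T4 plants, was -2.81 with the pseudocount of 1. It was -5.86 with 0.1 and -1.24 with 5, so its size depends on the pseudocount and is not read. The differences of Thhalv10018862m and Thhalv10021314m were -1.04 and -1.29 as deposited. The number of list genes matched by code was 0 among the 150, among the 75 highest scores and among all genes with a score above 0. Other causes were not tested. Differences within a lineage are given, but no paired test was run, since each generation of a lineage is 1 plant.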
